A study of Homo sapiens with 8 samples.

Results

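Annexins are calcium-dependent phospholipid-binding proteins, and 7 human annexin genes were followed here through knockdown of the splicing factor PTBP1: ANXA1, ANXA2, ANXA4, ANXA5, ANXA6, ANXA7 and ANXA11. The members were these named genes, each made up of the transcripts that GENCODE version 44 assigns to it, and they were 7 of the 62639 GENCODE genes listed in the count table. The genes and the ANXA7 and ANXA6 exons were chosen by their gene-level fold changes and isoform shares in this same comparison, shPTBP1 against shControl, so their levels, isoform shares and calls are given as descriptions and without p values. Of the 108 member transcripts in the table, 32 had at least 1 count. All 7 genes had at least 1 count in every library, and 6 passed the filter on low counts. The gene that did not pass was ANXA11.

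The cells were MOLM-13, a human acute myeloid leukemia line, in 4 libraries with shPTBP1 (an shRNA against PTBP1) and 4 with shControl (a scrambled shRNA). Both groups had 9 days of doxycycline, and both carried a lentiviral construct in which doxycycline switches on the shRNA together with the surface marker ΔLNGFR while mCherry is made constantly. A single hairpin was used on each side, so that differences between the transduced cells other than loss of PTBP1 cannot be told apart from it. The replicates are labelled biological replicates of 1 cell line. The cDNA was sequenced as long reads on a nanopore instrument, and the counts per splice isoform were those of StringTie. How much of each cDNA molecule a read covered was not examined. A library held 1528449 to 1613342 transcript counts. PTBP1 was at 9.88 ± 3.55 CPM after shPTBP1 and 47.5 ± 7.81 CPM in shControl (counts per 1000000, TMM-normalized; mean ± SD, n = 4), and PTBP2, which carries an exon that PTBP1 is known to repress, was at 124 ± 5.44 against 1.45 ± 0.81 CPM. Of the 8 myeloid leukemia markers, 5 passed the filter and none was called, and SPI1 had at most 1 count in a library. Their summed level was 639.6 to 756.1 CPM after shPTBP1 against 566.7 to 632.2 in shControl. The most abundant marker, LYZ, was at 345 ± 60.7 against 274 ± 25.4 CPM, with overlapping groups. CD33 (86.4 against 72.2 CPM), CEBPA and MPO also had higher means after shPTBP1, and the groups of CD33 did not overlap. HOXA9 (56.2 against 59.7 CPM) and FLT3 (2.93 against 5.56) had lower means. The groups of FLT3 did not overlap, at 3 to 12 counts a library. The 3 T cell markers were at 0 in every library, as were 3 of 4 erythroid and 2 of 3 megakaryocyte markers. The summed level of B cell, erythroid, megakaryocyte and epithelial markers was at most 7.99 CPM for each list in any library, and that of 3 fibroblast markers was 8.98 to 14.5 CPM, most of it COL1A2. The part of the difference in myeloid marker level in the annexin values was not tested.

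An annexin is built from a conserved core that binds calcium and acidic phospholipids such as phosphatidylserine, preceded by a variable amino-terminal part where partner proteins bind. Annexins tether membranes, take part in vesicle traffic and membrane repair, and in myeloid cells ANXA1 is known as a mediator that ends inflammation. PTBP1 binds pyrimidine-rich RNA and often represses the exon beside which it binds. ANXA7, also called synexin, is known to be spliced into a short form that is widespread and a long form, with 1 more exon in the amino-terminal part, that is typical of muscle and brain. ANXA6 has a duplicated core and is also known in 2 splice forms, which differ by a very short exon.

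The sequences that these splice forms turn on are shown first, read from hg38 on the strand of the transcript. The ANXA7 exon is 66 bases at chr10:73396044-73396109 on the minus strand. It is exon 6 of 14 in ANXA7-201, lies in coding sequence after 435 coding bases, and holds 22 whole codons, so that it keeps the reading frame. The intron before it has 409 bases and the intron after it 7629. The ANXA6 exon is 18 bases at chr5:151110627-151110644, also on the minus strand. It is exon 21 of 26 in ANXA6-201, follows 1572 coding bases and holds 6 whole codons, between introns of 6482 and 780 bases. A length that is a multiple of 3 was found in 45.7% of the 3137 variable cassette exons of all genes (mean inclusion between 5% and 95% in at least 1 group). In the lines that follow the exon is in capitals, with 100 bases of intron before it and 40 after it.
ANXA7, chr10:73396004-73396209, minus strand: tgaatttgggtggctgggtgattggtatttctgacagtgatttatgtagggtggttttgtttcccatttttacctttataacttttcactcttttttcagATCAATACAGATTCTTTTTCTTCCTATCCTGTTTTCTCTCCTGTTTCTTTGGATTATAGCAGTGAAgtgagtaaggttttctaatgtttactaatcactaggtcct
ANXA6, chr5:151110587-151110744, minus strand: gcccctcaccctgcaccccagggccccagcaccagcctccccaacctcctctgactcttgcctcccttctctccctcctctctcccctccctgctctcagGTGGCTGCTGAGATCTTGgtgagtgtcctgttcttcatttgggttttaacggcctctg

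Both loci were searched for TCTT and CTCT, 2 short pyrimidine motifs known for PTBP1, on the transcript strand and with overlapping matches counted. The 100 bases before the ANXA6 exon held 6 matches of CTCT and 1 of TCTT and were 79% pyrimidine. Over the same window of the 3137 variable exons, 0.893% had 6 or more CTCT and 0.733% were at least as rich in pyrimidine, with a median of 56%. The 100 bases before the ANXA7 exon were closer to other exons, with 1 TCTT, 1 CTCT and 61% pyrimidine, a value reached by 26.9% of the windows. At least 1 TCTT was present before 64.7% of all variable exons and at least 1 CTCT before 46.3%. The 100 bases after the ANXA7 exon were 64% pyrimidine, which 7.11% of exons reached. After the ANXA7 exon and after the ANXA6 exon, the 100 bases held 1 TCTT and 1 CTCT each. At least 1 TCTT was present after 49.95% of all variable exons and at least 1 CTCT after 37.8%. The ANXA7 exon itself held 3 TCTT and 1 CTCT and was 68.2% pyrimidine. This count inside the exon was made after its sequence had been seen. Among the 287 variable exons of 60 to 72 bases, 0.697% held 3 or more TCTT (2 exons, this exon among them), 24.4% held 1 or more CTCT, and 1.05% were as rich in pyrimidine. The motifs are in capitals in the following lines, and a match is a description of the letters, not a binding site.
ANXA7 exon, chr10:73396044-73396109: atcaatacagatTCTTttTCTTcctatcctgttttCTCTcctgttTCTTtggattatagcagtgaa
ANXA6 intron before the exon, chr5:151110645-151110744: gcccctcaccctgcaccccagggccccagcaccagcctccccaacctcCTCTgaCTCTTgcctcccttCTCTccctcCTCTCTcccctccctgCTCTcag

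The isoform that carries the 66-base exon, ANXA7-201, became the main ANXA7 transcript after shPTBP1. ANXA7-201 had 57, 58, 58 and 53 counts in the 4 shPTBP1 libraries and 23, 22, 20 and 18 in the shControl libraries. Its level was 36.6 ± 2.07 CPM against 13.3 ± 1.19 (SD, n = 4), 2.76 times as high. ANXA7-202, which lacks the exon and has 66 fewer coding bases, had 46, 34, 35 and 47 counts after shPTBP1 and 49, 47, 47 and 42 in shControl. Its level was 26.2 ± 3.98 against 29.6 ± 1.86 CPM, and the groups overlapped. The lowest shPTBP1 library held 33.9 CPM of ANXA7-201 and the highest shControl library 14.1, so the difference in the ANXA7 total lay in the isoform with the exon. Another transcript, ANXA7-205, had 1 count in all.

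As a share of ANXA7, ANXA7-201 made up 58.4% ± 5.03 after shPTBP1 and 30.8% ± 1.298 in shControl. The share of ANXA7-202 went from 68.8% ± 0.97 in shControl to 41.6% ± 5.03. These isoforms held all ANXA7 counts but 1, so a higher share of one is a lower share of the other. Both passed the isoform usage test (edgeR diffSpliceDGE, adjusted p under 0.05, with a shift of 10 points or more required in the mean share), beside 1.12% of the 5464 transcripts tested. The calls describe 1 shift and are not independent. ANXA7 was chosen by its isoform shares in this same comparison, so nothing is read from the share of transcripts called. The call for ANXA7-201 was kept without any 1 library, and that for ANXA7-202 was lost without any 1 of the 8, although its share still differed by 25.7 to 29.0 points. GENCODE ends ANXA7-201 344 bases before ANXA7-202, so that the isoforms differ at the 3′ end as well, and the part of this in the counts was not tested.

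Inclusion of the exon was measured as the counts of transcripts with the exon over those plus the counts of transcripts whose intron spans it. ANXA7-201 was the only including transcript, so for ANXA7 inclusion equals the ANXA7-201 share and is not a separate measurement. It was 55.3%, 63.0%, 62.4% and 53.0% in the shPTBP1 libraries and 31.9%, 31.9%, 29.9% and 29.5% in the shControl libraries. As counted, the exon was in most ANXA7 counts of every shPTBP1 library and in a minority of those of every shControl library. The difference of the means was 27.6 percentage points and stayed between 26.1 and 29.5 points when any 1 library was left out. These shares rest on 92 to 103 counts a library after shPTBP1 and 61 to 72 in shControl. Their 95% Wilson intervals, which cover counting error only, reached down to 43.3% in shPTBP1 and up to 43.6% in shControl. The intervals of shPTBP1 replicate 1 (45.7% to 64.6%) and replicate 4 (43.3% to 62.5%) do not establish a majority in those libraries.

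**Figure D1:**
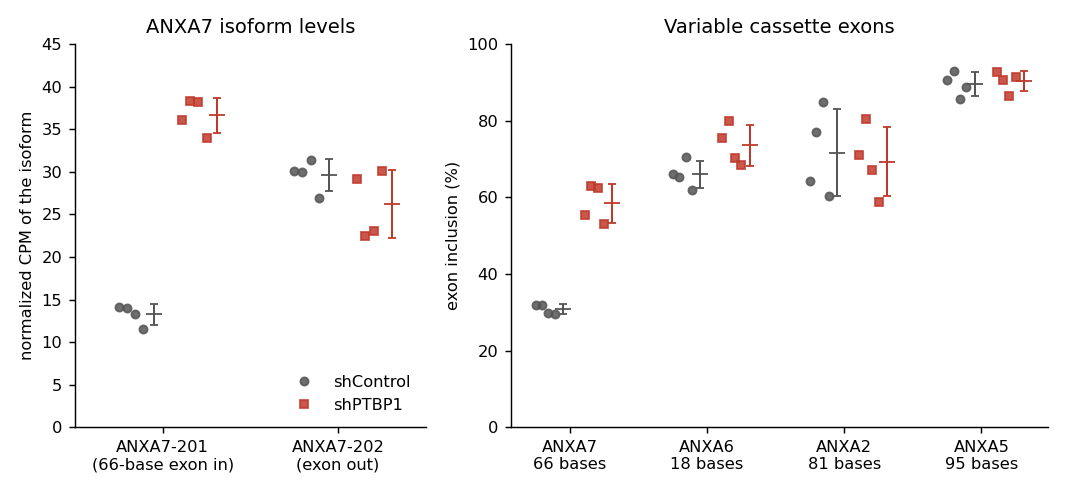
Left, normalized CPM of the 2 main ANXA7 isoforms; right, inclusion in percent of the variable cassette exons of 4 annexin genes (the 85-base ANXA5 exon has the values of the 95-base one). Points are libraries (4 shControl in grey, 4 shPTBP1 in red) and the bars beside them are mean ± SD. ANXA7-201 lies at 33.9 to 38.3 CPM after shPTBP1 against 11.5 to 14.1 in shControl, while ANXA7-202 overlaps.

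**Figure D2:**
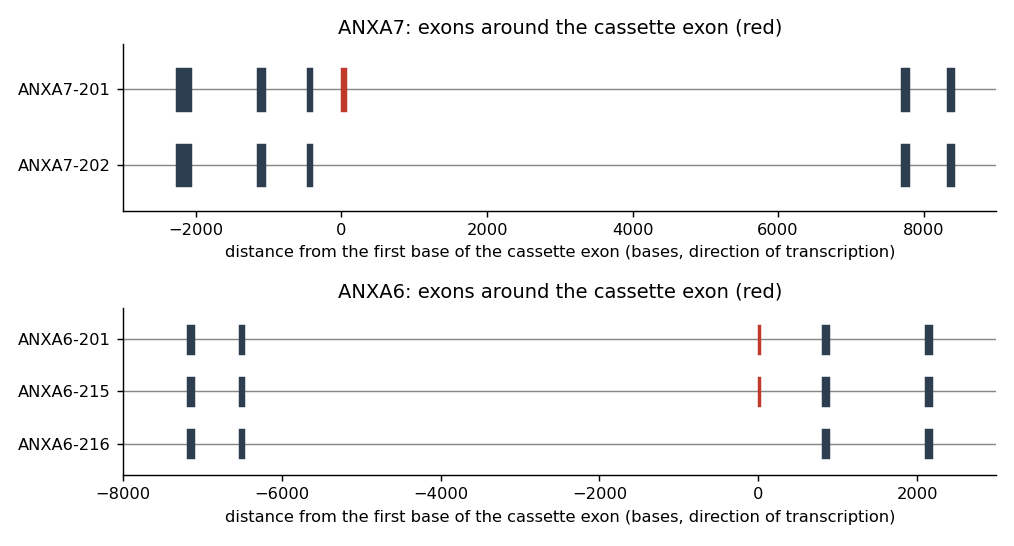
Annotated exons (boxes) around the 66-base exon of ANXA7 and the 18-base exon of ANXA6 (red), in bases from the first base of that exon in the direction of transcription. The red exon is present in ANXA7-201, ANXA6-201 and ANXA6-215 and absent from ANXA7-202 and ANXA6-216.

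Set against all genes, the variable cassette exons, for which including and skipping counts together reached 10 in every library, lay in 1902 genes, with a median change of 3.51 points in size. In 4.85% of them the groups did not overlap and differed by at least 10 points, and in 2.87% (90 exons) inclusion was that much higher after shPTBP1. The ANXA7 exon belongs to the latter. Its change was larger in size than that of 99.3% of the exons, with 16 exons showing a larger rise. As the exon was chosen by its isoform shares in this comparison, its place is a description only. The 5 variable exons of the annexins lay in 4 genes, and the other 4 differed by less than 10 points.

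**Figure D3:**
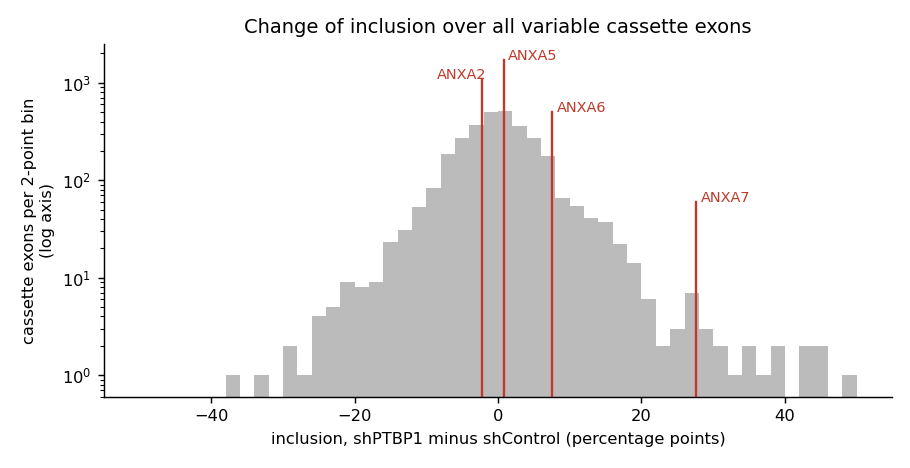
Distribution of the change of inclusion (shPTBP1 minus shControl, percentage points) over the 3137 variable cassette exons, in bins of 2 points with the number of exons on a log axis; red lines mark the annexin exons. ANXA7 stands at 27.6 points in the upper tail, ANXA6 at 7.58, ANXA5 at 0.78 and ANXA2 at -2.28.

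The 18-base exon of ANXA6 was included slightly more after shPTBP1, without separation of the groups. Inclusion was 75.6%, 80.0%, 70.2% and 68.4% in the shPTBP1 libraries and 66.1%, 65.3%, 70.6% and 61.8% in the shControl libraries. The means were 73.5% ± 5.28 and 65.96% ± 3.63, a difference of 7.58 points that was exceeded in size by 552 of the 3137 exons. shControl replicate 3 lay above shPTBP1 replicates 3 and 4. The 109 to 167 counts of a library gave 95% Wilson intervals that spread from 59.4% to 85.8% in shPTBP1 and from 52.5% to 78.4% in shControl.

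ANXA6 was divided among 3 isoforms, of which none was called. ANXA6-215, which has the exon and starts 16139 bases further downstream with 96 fewer coding bases than ANXA6-201, held most of the counts, 59.4% ± 6.74 after shPTBP1 and 54.7% ± 6.10 in shControl. ANXA6-216, which lacks the exon, held 26.2% ± 4.95 and 33.9% ± 3.51. ANXA6-201, with the exon, held 14.0% ± 2.81 and 11.04% ± 5.29.

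In ANXA2, the variable exon was an 81-base exon of the 5′ UTR at chr15:60397258-60397338, and its inclusion was 69.3% ± 9.01 after shPTBP1 against 71.6% ± 11.4. ANXA2-203, the main transcript, held 60.7% ± 8.84 and 63.8% ± 10.1, ANXA2-201 held 9.52% and 11.1%, and ANXA2-228, annotated for nonsense-mediated decay, held 11.5% and 10.5%. A single ANXA2 transcript passed the filter, so that isoform usage was not tested there. In ANXA5, a pair of coding exons of 95 and 85 bases (chr4:121684677-121684771 and chr4:121686288-121686372), skipped together in ANXA5-202 with the loss of 180 coding bases, was included at 90.3% ± 2.71 and 89.5% ± 3.10. ANXA5-201 held 88.4% and 88.6% of that gene, and ANXA5-202 held 9.68% and 10.5%.

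In ANXA4, the shares of the 2 main isoforms differed mostly by 1 library, shPTBP1 replicate 1. ANXA4-201 held 45.9%, 61.9%, 66.7% and 66.7% after shPTBP1 and 69.6%, 68.3%, 70.4% and 66.7% in shControl. ANXA4-202, with 66 fewer coding bases and a 3′ end 1331 bases earlier, held 37.7% ± 9.32 against 29.2% ± 3.24. Neither was called. All counts of ANXA1 were on ANXA1-201 in every library. ANXA11, with 1 to 11 counts a library, was split over ANXA11-201, ANXA11-202 and ANXA11-203, and its shares are not interpretable at this depth.

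At the gene level, 1 annexin rose and 1 fell among the 6 that were tested (edgeR quasi-likelihood test, Benjamini-Hochberg adjusted p under 0.05 over all genes). Over the 7597 genes tested, 5.54% were called, 2.36% higher and 3.19% lower. ANXA7 and ANXA4 were the called members, and 4 of the 6 had groups that did not overlap, beside 12.7% of all genes. Of these 4, 3 were lower and 1 higher after shPTBP1, beside 6.37% and 6.32% of all genes. The comparison was the one in whose results the members were chosen, so nothing is read from these shares. The median log2 fold change of the 6 was -0.30, and that of all genes was -0.00014. In bulk RNA, a change in the cells that express a gene and a change of RNA per cell cannot be told apart.

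ANXA7 (chr10:73375101-73414076, minus strand), which promotes membrane fusion in vitro and has a GTPase activity, rose. It was at 65.2, 60.8, 61.2 and 64.0 CPM in the shPTBP1 libraries and at 44.2, 43.9, 44.7 and 39.1 in shControl. The lowest shPTBP1 library was above the highest shControl library. The means were 62.8 ± 2.13 and 43.0 ± 2.59 CPM, a log2 fold change of 0.55 (SE 0.10). ANXA7 varied least among the members, with a coefficient of variation of 3.40% after shPTBP1 and 6.03% in shControl.

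ANXA4 (chr2:69644425-69827112, plus strand), an annexin of secretory epithelia and vesicle membranes, fell. It was at 23.4, 27.7, 27.6 and 23.0 CPM after shPTBP1 and at 42.4, 40.1, 36.0 and 40.4 in shControl. The groups were well apart, at 25.5 ± 2.58 and 39.7 ± 2.68 CPM, a log2 fold change of -0.64 (SE 0.13). The difference lay mostly in ANXA4-201, at 15.4 CPM after shPTBP1 and 27.3 in shControl, against 9.55 and 11.6 for ANXA4-202. With DESeq2 in place of edgeR, ANXA4 was not called.

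ANXA1 (chr9:73151865-73170393, plus strand), the glucocorticoid-induced mediator that acts through formyl peptide receptors, had the largest log2 fold change in size of the members and was not called. It was at 12.7, 10.6, 13.8 and 9.60 CPM after shPTBP1 and at 18.4, 15.3, 25.3 and 17.97 in shControl. The groups did not overlap, but the counts were only 15 to 38 a library, and shControl replicate 3 stood above the others of its group. The log2 fold change was -0.72 (SE 0.22). Its receptors FPR1, FPR2 and FPR3 had between 1 and 7 counts each over all 8 libraries and were not tested.

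ANXA5 (chr4:121667946-121696995, minus strand) is the annexin whose binding to exposed phosphatidylserine is used to stain dying cells. Its mRNA was at 78.5, 56.8, 63.2 and 74.3 CPM after shPTBP1 and at 92.8, 82.1, 84.0 and 79.6 in shControl. The highest shPTBP1 library came within about 1 CPM of the lowest shControl library. The log2 fold change of -0.31 (SE 0.11) was not called.

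ANXA2 (chr15:60347134-60402883, minus strand) binds S100A10 to form a tetramer at the plasma membrane. It was at 38.6, 40.3, 52.0 and 54.4 CPM after shPTBP1 and at 67.0, 49.7, 58.7 and 51.3 in shControl. The groups overlapped, and the log2 fold change was -0.29 (SE 0.14) without a call. Reads of the near-identical processed pseudogene ANXA2P2 numbered 0 to 2 a library. The authors kept only reads of high mapping quality, so reads that fit ANXA2 and ANXA2P2 equally well may be missing from both.

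ANXA6 (chr5:151100706-151157815, minus strand), a scaffold of endosomes and the plasma membrane, was at 82.9, 92.5, 82.3 and 73.0 CPM after shPTBP1 and at 75.0, 106, 72.7 and 71.2 in shControl. The other shControl libraries lay together and replicate 2 was far above them. The log2 fold change was 0.02 (SE 0.13), and 0.18 without shControl replicate 2, with no call in either. ANXA11 (chr10:80150889-80205572, minus strand), which links RNA granules to lysosomes, was at 3.796, 0.66, 3.29 and 1.92 CPM against 2.46, 7.004, 2.67 and 3.21, and a difference was not detectable at this depth.

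**Figure D4:**
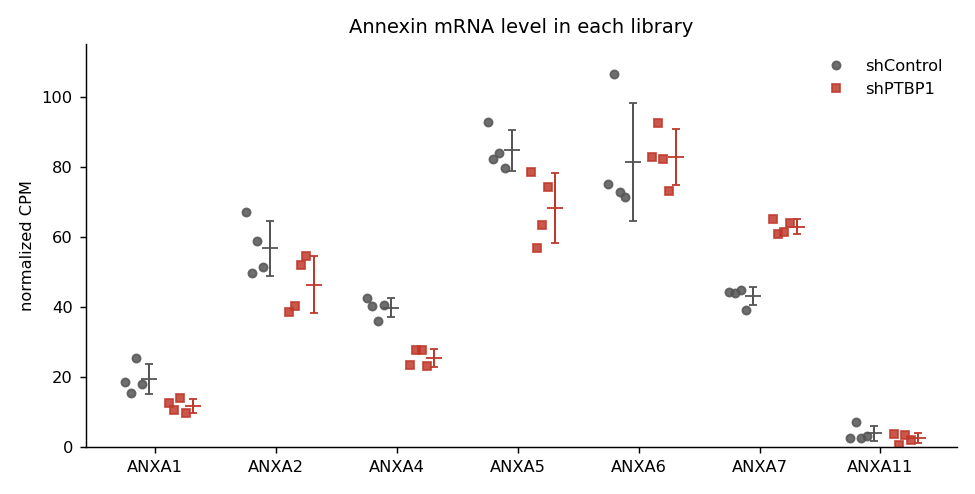
Normalized CPM of the 7 annexin genes in each library (4 shControl in grey, 4 shPTBP1 in red), with mean ± SD beside the points. ANXA7 is higher in all 4 shPTBP1 libraries, at 60.8 to 65.2 CPM, and ANXA1, ANXA4 and ANXA5 are lower, while ANXA2, ANXA6 and ANXA11 overlap.

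The levels of the annexins were ordered after division by transcript length, and the order holds on that scale only. Whether the counts of these long reads grow with transcript length was not examined, so the division may not be called for. In undivided CPM, ANXA6 at 81.3 stood above ANXA2 at 56.7 and ANXA7 at 43.0 above ANXA4 at 39.7 in the shControl means. The undivided shControl ranges of ANXA5 (79.6 to 92.8) and ANXA6 (71.2 to 106) overlapped. In shControl, ANXA5 was highest at 53.2 ± 3.54 CPM per kilobase, followed by ANXA2 at 37.1 ± 4.999 and ANXA6 at 32.6 ± 6.28, whose library ranges overlapped. ANXA4 at 18.7 ± 1.51 and ANXA7 at 18.4 ± 0.87 were within their spread of each other. ANXA1 followed at 13.7 ± 3.06, overlapping ANXA7 in its range, and ANXA11 was lowest at 1.23 ± 0.81. After shPTBP1, ANXA7 at 27.6 ± 0.79 CPM per kilobase stood above ANXA4 at 12.7 ± 1.24 in every library. ANXA5 still had the highest mean, 43.1 ± 6.21, but ANXA6 was above it in shPTBP1 replicate 2 (37.0 against 35.3). The mean of ANXA6, 33.0, was then above that of ANXA2, 30.0. In undivided CPM after shPTBP1, ANXA6 at 82.7 stood above ANXA5 at 68.2.

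Of the other 6 human annexin genes, ANXA3 was the one with enough counts to be tested. It had 17 to 34 counts a library, was at 15.7 ± 4.77 CPM after shPTBP1 and 17.0 ± 4.40 in shControl, and was not called, with a log2 fold change of -0.12 (SE 0.25). ANXA8 had 16 counts in all, 9 of them in shControl replicate 4. ANXA9 had 3 counts and ANXA8L1, a near copy of ANXA8, had 1. Reads that fit ANXA8 and ANXA8L1 equally well may be missing through the authors' filter on mapping quality. ANXA10 and ANXA13 were at 0 in every library, which by counting error alone allows a level of up to 0.238 CPM (3 counts of 12597043). The limit does not cover reads lost in alignment or in assignment to transcripts, which was not examined. SPI1, a marker of myeloid cells, also had at most 1 count in a library.

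Among 39 genes that work with annexins or beside them, 26 were tested, 3 were called lower and 0 higher after shPTBP1, beside 3.19% and 2.36% of all genes tested. The list was chosen with earlier results of these data known. The median log2 fold change of the 26 was 0.0032. Of the 4 S100 partners, which bind the amino-terminal parts of annexins, S100A10 and S100A4 fell. S100A10, the partner of ANXA2, was at 535, 542, 498 and 471 CPM after shPTBP1 and at 626, 560.3, 611 and 654 in shControl. The log2 fold change was -0.26 (SE 0.07, adjusted p = 0.042). S100A4, a calcium-binding protein tied to cell motility, was at 1296 ± 61.7 against 1592 ± 121 CPM, a log2 fold change of -0.30 (SE 0.06, adjusted p = 0.017). The groups did not overlap for either gene. S100A11, the partner of ANXA1, was at 2537 ± 83.2 and 2451 ± 127 CPM and S100A6 at 1017 ± 66.5 and 1105 ± 70.9, without a call.

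Of 12 genes of ESCRT and membrane repair, 9 were tested, and CHMP1A, a subunit of the ESCRT-III membrane scission complex, fell. It was at 48.6 ± 6.78 CPM against 72.1 ± 10.9, a log2 fold change of -0.57 (SE 0.13, adjusted p = 0.029), with 1 shPTBP1 library above the lowest shControl library. None of the 3 penta-EF-hand proteins tested was called, among them PDCD6, which binds ANXA7 and ANXA11, at 885 ± 47.8 and 887 ± 47.5 CPM. None was called among the 7 other calcium-dependent phospholipid binders tested, where ESYT1 was at 702 ± 37.7 and 681 ± 19.9 CPM, or among the 3 genes of phosphatidylserine exposure tested. Of the 26 genes, 0 were called lower without shPTBP1 replicate 3, shPTBP1 replicate 4 or shControl replicate 4, and 1 without shControl replicate 3. Calls over all genes also fell, from 421 to between 184 and 358, when any 1 library was left out.

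**Figure D5:**
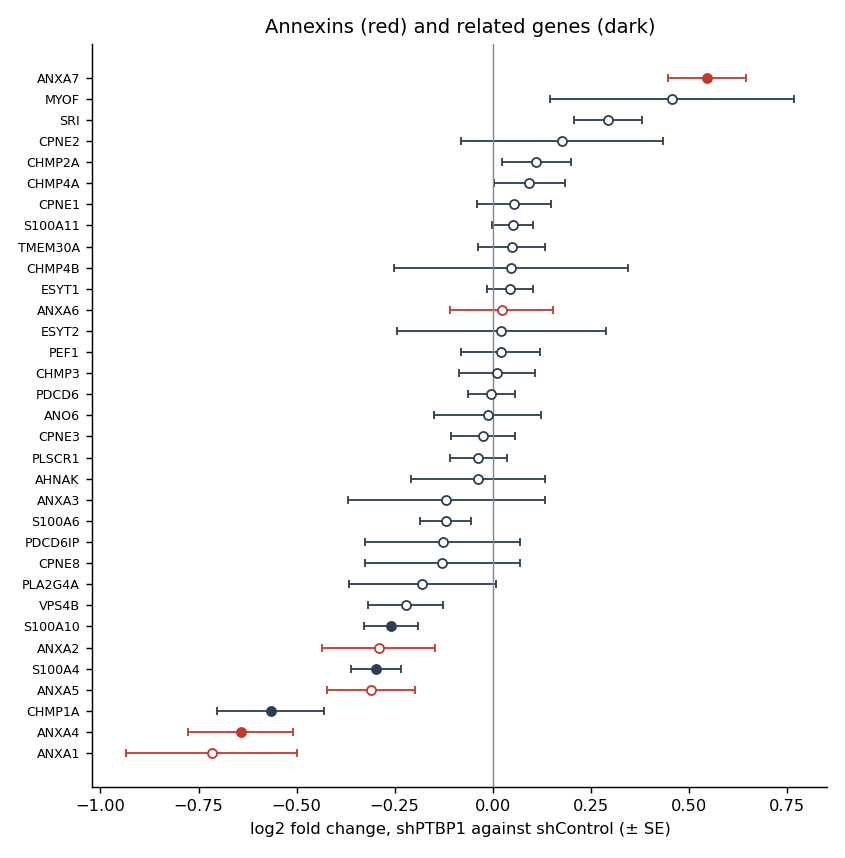
Log2 fold change (shPTBP1 against shControl, ± SE) of the 6 tested annexin members (red), ANXA3 and the 26 tested related genes (dark). Filled points were called at an adjusted p under 0.05: ANXA7 is at 0.55 and ANXA4 at -0.64, and S100A10, S100A4 and CHMP1A lie between them and 0 on the lower side.

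The genes whose level correlated most with that of ANXA7 or ANXA1 were looked up over the 8 libraries. Pearson correlations of log2 CPM were taken among genes with a mean of at least 50 counts (3680 for ANXA7 and 3681 for ANXA1). A correlation over 0.9 was reached by 1.93% of genes for ANXA7 and by 0.543% for ANXA1. For ANXA7, the 2 highest correlations were those of RBM39 at 0.983 and MATR3 at 0.980, a pair of RNA-binding nuclear proteins. For ANXA1, the 2 highest were TIMM17A at 0.990 and SHMT2 at 0.982, both mitochondrial. A correlation does not measure the size of a change. The log2 fold change was -0.65 for TIMM17A and only -0.077 for SHMT2, against -0.72 for ANXA1. It was 0.31 for RBM39 and 0.77 for MATR3, against 0.55 for ANXA7. The 8 points hold 2 groups whose ranges do not overlap for ANXA7 or for ANXA1, so that the difference between the groups enters every one of these correlations.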

How the data were processed

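Total RNA of 8 MOLM-13 libraries was converted to cDNA and sequenced on a nanopore instrument by the authors, who aligned the reads to hg38 with minimap2, kept those of high mapping quality and counted transcripts with StringTie. Tool versions and the annotation are not given in the sources used here. The deposited counts are whole numbers per annotated transcript, without normalization. A deposited table of the same counts scaled to the library total was not used.

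Groups and replicate numbers came from the sample labels. Counts of the 252562 of 254070 transcripts found in GENCODE version 44 were summed per gene. Genes were tested with edgeR 4.0.16 (filterByExpr with a minimum count of 10, TMM, quasi-likelihood test, group only), and isoforms with its diffSpliceDGE, in R 4.3.3. Tests were tried on simulated counts. Alternatives were DESeq2 1.42.0, its size factors, limma 3.58.1 diffSplice, other filters and share limits, other transcript sets and pooled counts for the exons, the replicate number as a block, and leaving out each library. Numbers shared between groups did not pair libraries: correlations of deviations from the group means were -0.0328 to 0.00889.

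The members and gene lists were chosen with earlier results of these data known. Named are all annexin genes, member isoforms with a mean share of at least 10% in a group, variable cassette exons, called genes of the list of 39 and its 4 next most abundant, and the 2 genes most correlated with ANXA7 and ANXA1. Within groups, squared differences of counts were 2.03 to 3.73 times those of counting error, so no library was a copy of another. Reads of amplified cDNA are not independent molecules, and p values measure the spread between these libraries.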

Additional observations from a re-analysis of the deposited data

Results flagged for a closer look

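In 3 of the 48 groups of 4 libraries examined for the annexins, 1 library stood apart from the other 3 by Dixon's criterion. Chance alone does so in about 1 in 20 groups. ANXA6 was at 106 CPM in shControl replicate 2, against 71.2 to 75.0 in the others, and ANXA11 was at 7.004 CPM in the same library, a value of 11 counts. ANXA7 was at 39.1 CPM in shControl replicate 4, against 43.9 to 44.7 in the other shControl libraries.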

How the results depend on the processing

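ANXA7 was called higher, and its exon differed by 26.1 to 29.5 points, under every alternative that gave a value. With DESeq2, 0 members were called lower. ANXA4 then missed the threshold, at a log2 fold change of -0.64, and in all other fits it was called. In the fit blocked by replicate number, 1 member was lower and 1 higher, 2 of the 39 related genes were lower and 2 isoforms were called, and the block changed no member's call. No library correlated best with its own number (0 of 4). The 2 isoform calls became 1 (ANXA7-201) with a mean of at least 10 counts per transcript and in each fit without 1 library (range 1 to 1). Genes of the related list called lower ranged from 0 to 2 without 1 library, when 184 to 358 of all genes were called in place of 421. The log2 fold change of ANXA6 ranged from -0.035 to 0.18 without 1 library. It changed sign to -0.035 without shPTBP1 replicate 2 or shControl replicate 4, -0.015 without shControl replicate 1 and -0.026 without shControl replicate 3, always without a call. The causes were not tested. At 1 to 11 counts, ANXA11 was out of reach. ANXA1 had no adjusted p from DESeq2 and was below the filter of a mean of 50 counts.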
